A study of Mus musculus with 6 samples.

Results

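Transcripts of immunoglobulin variable (V) segments, the germline pieces that encode the antigen-binding end of an antibody chain, were examined in the 2 MHCIIhi cell populations of the small bowel muscularis externa (ME). The members were all genes in the deposited table of normalized values whose symbol began with Ighv, Igkv or Iglv and whose value was above 0 in at least 1 of the 6 libraries. This gave 114 of the 26110 listed genes, namely 55 heavy chain, 56 kappa chain and 3 lambda chain segments, and no listed V segment was left out. The members were thus selected on detection, a normalized value above 0, in either population. For 105 of them this was met only in the CX3CR1- population described below.

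The libraries were bulk RNA-seq of MHCIIhi CX3CR1- cells (n = 3) and MHCIIhi CX3CR1+ cells (n = 3), sorted from the ME of untreated mice. All mice of both groups carried the genotype CX3CR1+/GFP, in which GFP replaces one allele of the fractalkine receptor Cx3cr1 and marks the cells that transcribe it. The labels call both populations dendritic cells whereas the study calls them macrophages, their ages are not given, and the ME of several mice was pooled for a sort. Nothing states that each library came from its own pool, so p-values measure only the spread between libraries, which may be technical.

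B cells assemble a heavy chain gene from a V, a diversity (D) and a joining (J) segment and a light chain gene from a V and a J segment, and the assembled piece is transcribed together with a constant (C) gene. Each B cell clone therefore transcribes mainly 1 heavy and 1 light V segment, and the V segments in a tissue sample describe the clones whose RNA it holds. Plasma cells, the antibody-secreting end stage, carry far more immunoglobulin RNA per cell than resting B cells, and those of the gut wall secrete mainly IgA.

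The 3′ ends of the 7 segments that led a class in a CX3CR1- library are shown, along with Ighv1-9, which had the smallest adjusted p, and Igkv1-117, which shares much of its sequence with Igkv1-110. They show how alike related members are in this stretch, although reads can be assigned from any part of a transcript. Each line gives the last 60 bases of the annotated transcript, 5′ to 3′, from the GENCODE M21 transcripts (GRCm38). The capitals mark the codons for tyrosine, tyrosine or phenylalanine, and cysteine (TAT or TAC, then TAT, TAC, TTT or TTC, then TGT or TGC) that end the framework part of a V segment, searched on the transcript strand only.
Ighv1-11: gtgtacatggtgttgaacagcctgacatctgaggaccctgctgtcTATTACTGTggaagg
Ighv1-9: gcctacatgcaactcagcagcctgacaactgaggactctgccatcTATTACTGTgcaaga
Ighv8-5: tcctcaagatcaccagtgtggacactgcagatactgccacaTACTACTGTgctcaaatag
Igkv8-16: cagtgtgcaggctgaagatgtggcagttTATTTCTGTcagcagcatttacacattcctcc
Igkv1-110: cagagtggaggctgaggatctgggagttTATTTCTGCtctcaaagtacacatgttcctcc
Igkv1-117: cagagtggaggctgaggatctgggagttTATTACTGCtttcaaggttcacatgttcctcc
Igkv1-99: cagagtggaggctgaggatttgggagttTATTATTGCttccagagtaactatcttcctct
Iglv1: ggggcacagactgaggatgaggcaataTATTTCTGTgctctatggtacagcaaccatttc
Iglv2: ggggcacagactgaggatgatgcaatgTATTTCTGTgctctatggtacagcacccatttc

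The 3 heavy windows lie in the final exon of their segments on the minus strand of chromosome 12, at chr12:114612243-114612302, chr12:114583569-114583628 and chr12:115067560-115067619. On chromosome 6, the window of Igkv8-16 lies at chr6:70386672-70386731 on the minus strand. Those of Igkv1-110, Igkv1-117 and Igkv1-99 lie on the plus strand at chr6:68271208-68271267, chr6:68121768-68121827 and chr6:68542363-68542422. The windows of Iglv1 and Iglv2 lie on the minus strand of chromosome 16 at chr16:19085017-19085076 and chr16:19260401-19260460. The capitals' pattern was found in the last 60 bases of 112 of the 114 members, in 95.9% of all 217 annotated V segment genes, in 70 of 129 V pseudogenes and in 0.784% of 141079 other transcripts. The exceptions among the members were Ighv3-8 and Iglv3.

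Igkv1-110 and Igkv1-117 had the same base at 56 of these 60 positions, and Iglv1 and Iglv2 at 57. Over the whole transcripts, 63.1% of the 31-base stretches of Igkv1-110 also occur in Igkv1-117, so the split of reads between these 2 segments is uncertain. The same holds for Igkv8-16, of which 75.3% of the 31-base stretches lie also in the annotated gene Gm43218, and for Ighv8-5, of which 58.2% occur in another gene. In contrast, only 1.25% were shared for Ighv1-11 and 11.2% for Igkv1-99. Across the 114 members the median was 46.4% (range 0 to 98.1%), and 47 members shared more than 50%.

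According to the annotation, 113 members are functional segments and 1, Ighv1-14, is a pseudogene. It was the only pseudogene among them and was named after its value was seen, which was 10 approximate reads, all in CX3CR1- replicate 3. The members made up 47.4% of the annotated heavy chain V genes, counting 54 functional members of 114, along with 56 of 100 kappa and all 3 lambda genes. They belonged to 12 heavy and 15 kappa families of related sequence, while each lambda segment formed its own family.

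All values below are the deposited read estimates after normalization between libraries. From the smallest step between values, a single read was worth 0.463 to 1.79 normalized units and the libraries held approximately 5346381 to 17616761 reads. Values of up to 3 reads (1.39 to 5.36 units, depending on the library) were treated as not distinguishable from 0. In the check of the sort, Cx3cr1 had values of 23.2, 18.9 and 28.5 in CX3CR1- and of 371, 380 and 347 in CX3CR1+ cells. The share of mitochondrial transcripts also differed between the groups, with 47.5 to 54.9% of the value in CX3CR1- and 18.1 to 21.2% in CX3CR1+ libraries, and its part in the results was not tested.

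V segment transcripts were abundant in the CX3CR1- and nearly absent in the CX3CR1+ libraries. The summed heavy chain value was 1484, 5213 and 2414 in CX3CR1- replicates 1, 2 and 3 and 1.85, 9.02 and 1.42 in CX3CR1+ replicates 1, 2 and 3. The groups did not overlap, and the means (3037 ± 1941 against 4.10 ± 4.27, SD, n = 3 each) differed 741-fold. CX3CR1+ replicate 2 held most of the CX3CR1+ value, and without it the ratio was 1859. Leaving out CX3CR1- replicate 2, the highest library, gave a ratio of 476.

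For kappa, the sums were 2182, 6898 and 2762 in the CX3CR1- libraries and 0.912, 4.95 and 1.42 in the CX3CR1+ libraries. The means (3947 ± 2572 against 2.42 ± 2.20, SD, n = 3 each) differed 1628-fold, or 3391-fold without CX3CR1+ replicate 2 and 1019-fold without CX3CR1- replicate 2. Lambda segments had sums of 556, 982 and 80.3 in the CX3CR1- libraries and were at 0 in all 3 CX3CR1+ libraries, so that the CX3CR1- mean of 540 ± 451 (SD, n = 3) was at least 200-fold above the mean value of 3 reads per CX3CR1+ library. The lambda mean was 318 without CX3CR1- replicate 2 and 769 without replicate 3. An exact permutation test of 3 against 3 libraries cannot give a two-sided p below 0.1, and no p-value is given for these sums. In bulk RNA, fewer cells of a type and less RNA per cell cannot be told apart.

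**Figure D1:**
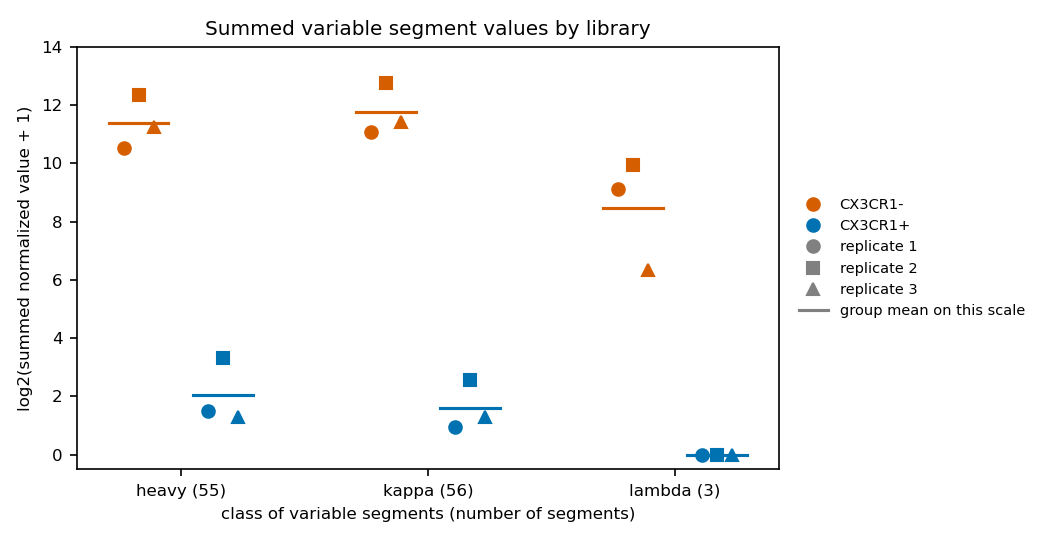
Summed normalized value of the heavy, kappa and lambda V segments on the log2(value + 1) scale, with 1 point per library, shapes for replicates and a line for the group mean on that scale. In each class the 3 CX3CR1- libraries lie above the 3 CX3CR1+ libraries, CX3CR1- replicate 2 is the highest, and all lambda sums are 0 in CX3CR1+ cells.

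The few reads in CX3CR1+ cells came from 9 members, whereas 105 members were at 0 in all 3 libraries. In all, approximately 6, 17 and 2 reads fell on V segments in CX3CR1+ replicates 1, 2 and 3, against 4045, 7322 and 5271 in CX3CR1- replicates 1, 2 and 3. Ighv2-2 was the one member above 3 reads in a CX3CR1+ library, with a value of 5.74 (7 reads) in replicate 2 and 0 in the other two. Ighv6-3 was listed above 0 in all 3, at 0.925, 1.64 and 1.42, which is at most 2 reads per library. Igkv10-94 led the kappa segments of CX3CR1+ replicates 1 and 3 with 1 read each, and Igkv16-104 led that of replicate 2 with 3 reads.

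The number of segments detected, meaning a value above 0, was 44, 43 and 43 of 55 heavy segments in the CX3CR1- libraries and 2, 4 and 1 in the CX3CR1+ libraries. For kappa it was 43, 50 and 36 of 56 against 2, 3 and 1, and for lambda 2, 3 and 3 of 3 against 0. Detection chose the members, and 105 of the 114 were detected only in CX3CR1- libraries, so the difference in numbers is a description. Of the 114 members, 55 were detected in all 3 CX3CR1- libraries, 43 in 2 of them and 16 in 1. Above 3 reads, the same counts were 27, 44 and 43. When every CX3CR1- library was thinned to the reads of the one with the fewest reads in that class, the expected number detected was 44, 42.4 and 39.8 for heavy and 43, 48.0 and 35.1 for kappa, so the lower kappa number of replicate 3 remained.

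Single segments were tested with limma on log2(value + 1), with Benjamini-Hochberg adjustment over the 17812 genes whose mean over the 6 libraries was at least 10, and a call required both an adjusted p no higher than 0.05 and a change of at least 1 on the log2 scale. Of the 114 members, 74 passed this filter (29 heavy, 43 kappa and 2 lambda). Among these, 26 (13 heavy, 11 kappa and 2 lambda) were called higher in CX3CR1- cells, where 12.2% of all tested genes were. None was called lower, against 8.15% of all tested genes (20.4% were called in either direction), and 48 were not called. None had a negative log2 fold change either. An unadjusted p of up to 0.05 (limma) was found for 45 of the 74, against 6304 of all 17812 tested genes. Since CX3CR1+ values were close to 0, a segment could pass the filter only through the CX3CR1- libraries, and its direction was thereby fixed. The 2 segments just above the filter were Ighv1-47 and Ighv2-5 with means of 10.3 and 10.5, and the 2 just below were Ighv5-4 and Ighv9-3 with means of 9.67 and 9.16.

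Every value of the CX3CR1- libraries exceeded every value of the CX3CR1+ libraries for 39 of the 74, against 20.3% of all tested genes, and the reverse order was found for none of the 74 and for 19.8% of all tested genes. As the direction was fixed by the filter, these counts and the median are given as a description only. The median log2 fold change of the 74 was 3.85, against 0.00 over all tested genes (-0.0035). Of the 26 calls, 17 were kept whichever single library was left out, including Ighv1-9, Ighv1-11, Ighv1-55, Igkv8-16, Igkv1-110 and Iglv1. The matching share of all genes called higher was not computed. The count of 17 thus cannot be compared with that of other genes.

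The smallest adjusted p-values belonged to 3 heavy segments of the Ighv1 family, the largest V family of the mouse. Ighv1-9 had values of 145, 409 and 374 in CX3CR1- replicates 1, 2 and 3 and 0 in all CX3CR1+ libraries. All 3 CX3CR1- values were far above those of 3 reads, and the log2 fold change was 8.14 ± 0.54 (SE, limma, adjusted p = 6.7e-06). Ighv1-55 had values of 140, 161 and 102 against 0, with a log2 fold change of 7.05 ± 0.55 (SE, limma, adjusted p = 1.7e-05).

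Ighv1-11 was the member with the highest mean. Its values were 209, 2049 and 420 in the CX3CR1- libraries and 0 in the CX3CR1+ libraries, and replicate 2 was far above the others. The log2 fold change was 9.14 ± 0.73 (SE, limma, adjusted p = 1.8e-05), and the CX3CR1- mean was at least 331-fold above the mean value of 3 reads in the CX3CR1+ libraries. Ighv3-6 (12.5, 265 and 146 against 0) and Ighv6-3 (151, 136 and 12.0 against 0.925, 1.64 and 1.42) were also called higher. They differed from one another in which library was low, with replicate 1 the lowest for Ighv3-6 and replicate 3 for Ighv6-3.

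Among kappa segments, Igkv8-16 had the highest mean, with values of 117, 1271 and 466 in CX3CR1- and 0 in CX3CR1+ cells and a log2 fold change of 8.69 ± 0.75 (SE, limma, adjusted p = 2.9e-05). Igkv1-110 (615, 431 and 15.96) and Igkv1-117 (372, 528 and 9.97) were at 0 in CX3CR1+ cells and were called higher as well. Both were lowest in CX3CR1- replicate 3. Igkv10-96 (143, 404 and 32.9) and Igkv4-55 (106, 23.2 and 163) were called higher from a CX3CR1+ level of 0, and their lowest libraries differed.

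Both tested lambda segments were called higher. Iglv1 had values of 553, 644 and 19.9 against 0, with a log2 fold change of 7.61 ± 1.13 (SE, limma, adjusted p = 0.00081). Iglv2 had 3.09, 319 and 52.4 against 0, with a log2 fold change of 5.36 ± 1.36 (SE, limma, adjusted p = 0.016). The Iglv2 call was lost without CX3CR1- replicate 2 or 3 (adjusted p = 0.057 and 0.054), with a pseudocount of 10 (0.0503) and under quantile normalization (0.067). Iglv3, with 0, 19.7 and 7.98 in CX3CR1- cells, was below the filter.

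Several segments with high values lacked a call and were high in only some of the CX3CR1- libraries. Ighv8-5 was the leading heavy segment of replicate 1 with a value of 214 (205 reads) and was at 0 in the other 5 libraries (limma, adjusted p = 0.41). Igkv1-99 was the leading kappa segment of replicate 3 with 816 (818 reads), while replicates 1 and 2 had 1.07 and 0 (limma, adjusted p = 0.34). Each of these values came almost wholly from 1 library.

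Ighv1-26 had 7.31, 0 and 320, and Ighv3-8 had 141, 227 and 0 in CX3CR1- replicates 1, 2 and 3. Of the kappa segments, Igkv17-127 had 7.31, 374 and 0, Igkv2-112 had 0, 302 and 0, Igkv1-135 had 8.35, 451 and 1.99, and Igkv15-103 had 181, 184 and 0. All 6 lacked a call, with adjusted p-values from 0.065 to 0.39 (limma).

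The spread among the CX3CR1- libraries was wider for V segments than for most genes. On the log2(value + 1) scale, the median log2 ratio of the highest to the lowest CX3CR1- library was 5.93 over the 74 tested segments and 0.89 over all 17812 tested genes. The ratio exceeded 10-fold for 61 of the 74 segments (82.4%) and for 800 of all tested genes (4.49%). These shares are a description, since the genes were not matched for level. The class sums of the same 3 libraries, which vary less than single segments by construction, differed 3.51-fold for heavy, 3.16-fold for kappa and 12.2-fold for lambda.

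**Figure D2:**
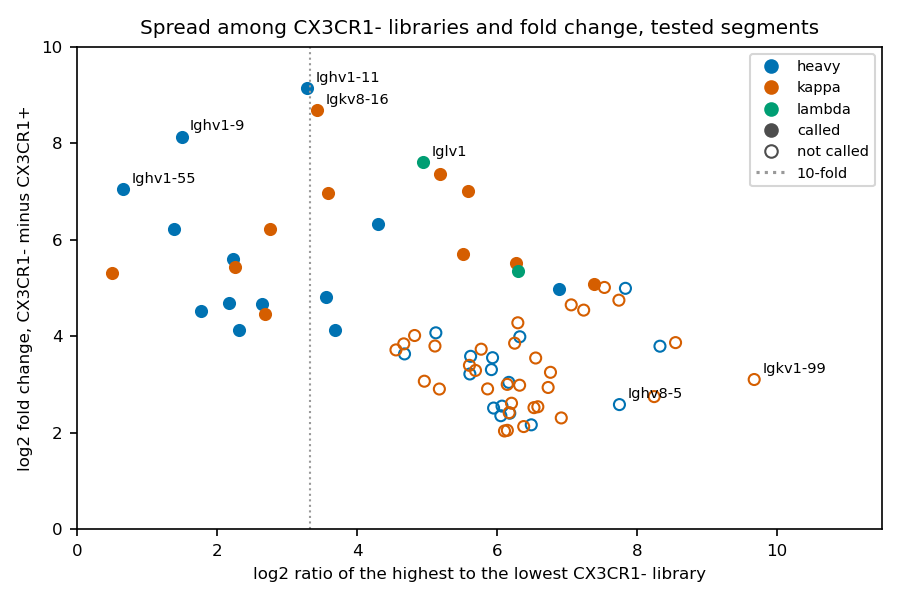
The 74 tested V segments by the log2 ratio of the highest to the lowest CX3CR1- library (horizontal) and the log2 fold change of CX3CR1- over CX3CR1+ cells (vertical), both on log2(value + 1), with filled points for called segments and a dotted line at 10-fold. All 74 fold changes are above 0, 61 points lie right of the line, and Igkv1-99 is the farthest right.

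The leading kappa segment differed between all 3 CX3CR1- libraries, while Ighv1-11 led the heavy segments of replicates 2 and 3. Ighv8-5 took 14.4% of the summed heavy value of replicate 1 (95% exact binomial interval 12.6 to 16.4%, counting error only). Its lead there was slight, with 205 reads against 200 for Ighv1-11. Ighv1-11 took 39.3% in replicate 2 (37.5 to 41.1%) and 17.4% in replicate 3 (15.9 to 19.0%). For kappa, the leaders were Igkv1-110 with 28.2% in replicate 1 (26.2 to 30.1%), Igkv8-16 with 18.4% in replicate 2 (17.2 to 19.7%) and Igkv1-99 with 29.5% in replicate 3 (27.8 to 31.3%). The same segments led when values were divided by transcript length.

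The lambda class was led by Iglv1 with 99.4% in replicate 1 and 65.6% in replicate 2, and by Iglv2 with 65.4% in replicate 3. Reads without molecular identifiers are not independent molecules, so these intervals leave out the error of library preparation.

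**Figure D3:**
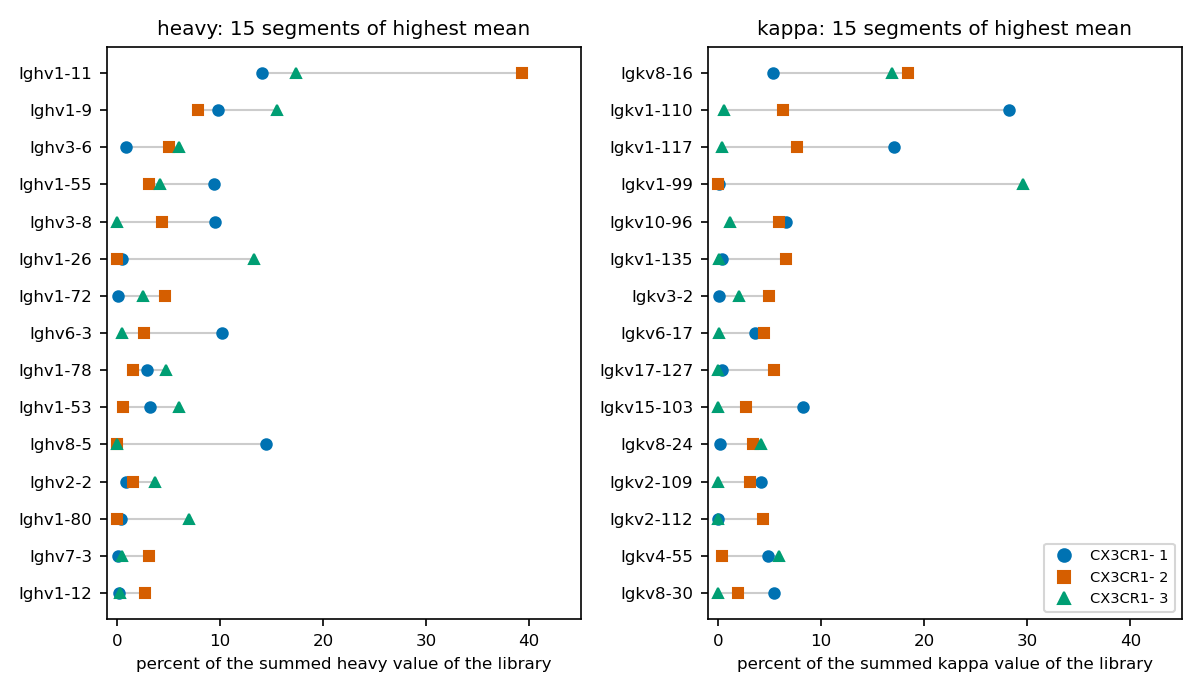
Share of the summed heavy (left) or kappa (right) value in each CX3CR1- library for the 15 segments of highest mean in each class, with 1 point per library. Ighv1-11 reaches 39.3% in replicate 2, and Ighv8-5 and Igkv1-99 are each near 0 in 2 libraries while leading the remaining one.

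The effective number of segments, which is the number of equally abundant segments that would give the same evenness, was 16.5, 14.6 and 16.01 for heavy and 12.4, 23.4 and 13.8 for kappa. Replicate 2 was thus the most uneven for heavy and the most even for kappa. Thinning to equal reads left these at 16.5, 14.5 and 15.9 and at 12.3, 23.3 and 13.7, respectively.

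The overlap between 2 libraries, taken as the sum over segments of the smaller of the 2 shares, was 43.4 to 47.1% for heavy segments in the 3 pairs of CX3CR1- libraries. For kappa it was 43.3% between replicates 1 and 2, 30.7% between 2 and 3 and 18.0% between 1 and 3. Spearman's rho of the segment values was 0.14 to 0.20 over the 55 heavy segments and 0.30, -0.28 and -0.07 over the 56 kappa segments for the same pairs. These are correlations across segments, which share their library and partly their sequence.

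Within the classes, a few families held most of the value. The Ighv1 family, with 31 of the 55 heavy members, took 54.9, 70.3 and 81.2% of the heavy value in CX3CR1- replicates 1, 2 and 3. The Igkv1 family took 45.7, 23.5 and 30.5% of the kappa value, and the Igkv8 family 12.0, 26.0 and 22.8%. With values summed by family, 27 of the 30 families passed the filter and 21 were called higher in CX3CR1- cells. In the fit of single segments, 12.2% of all tested genes were called higher. Family sums were close to 0 in CX3CR1+ cells, so families too could pass the filter only through the CX3CR1- libraries, and their direction was fixed. The Ighv1 family had a log2 fold change of 10.21 ± 0.53 (SE, limma, adjusted p = 2.3e-06) and the Igkv1 family one of 9.64 ± 0.40 (SE, limma, adjusted p = 1.3e-06).

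The members were spread over nearly the whole length of both large loci. The heavy members lay 166 to 2529.8 kb from Ighm, all on the minus strand, and the kappa members 22.3 to 3116 kb from Igkc, with 23 on the plus and 33 on the minus strand. In the nearer part of the annotated heavy segments, up to 1235 kb from Ighm, lay 27 members, which held 57.5, 79.1 and 51.1% of the heavy value of CX3CR1- replicates 1, 2 and 3. For kappa, the 32 members up to 1487 kb from Igkc held 30.4, 47.3 and 59.9%. Ighv1-11 alone, at 1189.5 kb from Ighm and thus in the nearer part, took 39.3% of the heavy value of replicate 2. The value-weighted median distance of the heavy segments was 1189.5 kb in all 3 CX3CR1- libraries, while that of the kappa segments was 2423, 1499 and 961 kb in replicates 1, 2 and 3.

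**Figure D4:**
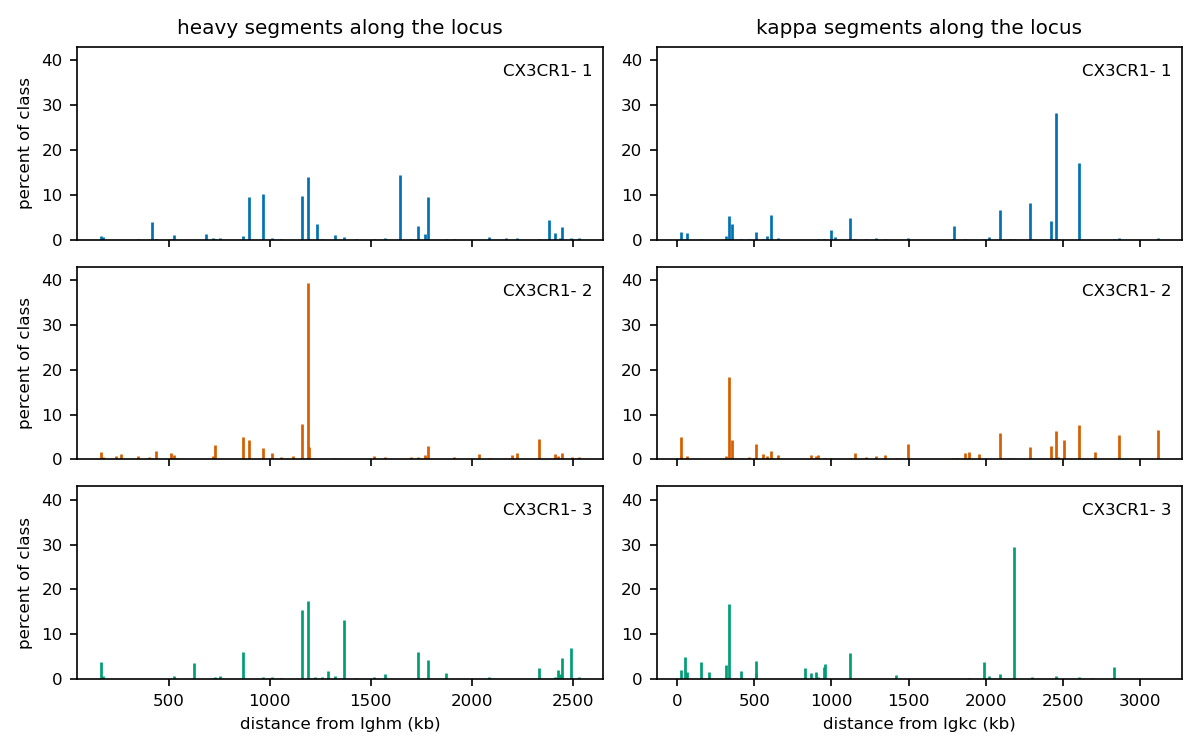
Share of the class value (vertical, percent) of each heavy (left) and kappa (right) segment against its distance in kb from Ighm or Igkc, with 1 row per CX3CR1- library. Lines stand along most of both loci. The tallest heavy line is 39.3% at Ighv1-11 in replicate 2, and Ighv1-11 is also the tallest heavy line of replicate 3. The tallest kappa line is 29.5% at Igkv1-99 in replicate 3.

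The other immunoglobulin genes were examined from a list of 18 genes, with 10 constant genes, 7 joining genes and Jchain. Of these, 14 were tested and 12 were called higher in CX3CR1- cells, with 0 lower, against 12.2% higher and 8.15% lower of all tested genes. All 10 constant genes were called. Apart from Ighm and Ighd, the genes of this list had CX3CR1+ values of at most 12.2. They could pass the filter only through the CX3CR1- libraries and could not be called lower, so these counts are a description. Igkc, the kappa constant gene, had values of 5768, 21524 and 11619.5 against 0, 6.56 and 2.83, a log2 fold change of 11.85 ± 0.67 (SE, limma, adjusted p = 3.8e-06). Jchain, which links IgA or IgM units into polymers, had 946, 2900 and 1115 against 12.2, 10.2 and 8.81, a log2 fold change of 7.003 ± 0.40 (SE, limma, adjusted p = 3.8e-06). Among the joining genes, Ighj2 was called, while Ighj1 and Ighj4 were not.

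The shares of the heavy constant gene transcripts also differed between the CX3CR1- libraries. Igha, which encodes the IgA heavy chain, had values of 7653, 22680.5 and 1604 against at most 2.33 in CX3CR1+ cells and made up 56.3, 49.6 and 5.85% of the heavy constant value. Ighm, the IgM gene, made up 37.7, 17.1 and 89.2%, and Ighg3 0.166, 31.2 and 1.08%. Replicate 3 was thus dominated by Ighm, and replicate 2 was the one with a high Ighg3 value (14269.9, against 22.7 and 297). Shares were not corrected for length, and they are compared here between libraries and not between genes.

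In CX3CR1+ cells Ighm was still listed at 1598, 1951 and 1811, while the heavy V segments together did not exceed 9.02. Ighm made up 97.0 to 98.5% of the heavy constant value there. The summed heavy V value was 10.9, 11.4 and 8.81% of the heavy constant value in CX3CR1- replicates 1, 2 and 3 and 0.112, 0.456 and 0.0769% in the CX3CR1+ replicates. These ranges did not overlap.

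The kappa to lambda ratio of the V segments was 3.92, 7.02 and 34.4 in CX3CR1- replicates 1, 2 and 3. The same ratio for the constant genes was 1.81, 6.78 and 28.9. Both put replicate 1 lowest and replicate 3 highest. Kappa V values exceeded heavy V values 1.14- to 1.47-fold in these libraries.

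**Figure D5:**
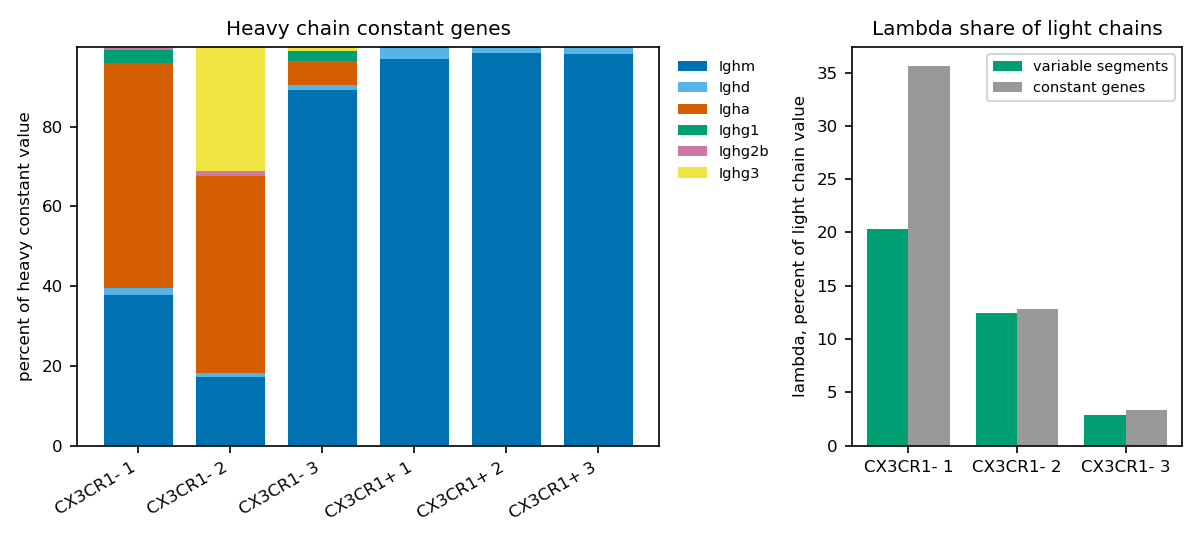
Left, share of each heavy chain constant gene in the summed heavy constant value of each of the 6 libraries. Right, lambda share of the light chain value in the CX3CR1- libraries, from V segments (20.3, 12.5 and 2.82%) and from constant genes (35.6, 12.9 and 3.35%); Ighm dominates CX3CR1- replicate 3 and all CX3CR1+ libraries.

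Most tested B cell genes and fewer of the plasma cell genes were called higher in CX3CR1- cells. Of 14 listed B cell genes 13 were tested, and 11 were called higher and 0 lower in CX3CR1- cells. Of all tested genes, 12.2% were called higher and 8.15% lower. Of the 14 listed, 4 did not exceed 3 reads in any CX3CR1+ library and could not be called lower. Cd79a, a signaling chain of the B cell receptor, had values of 150, 286 and 161 against 1.85, 0 and 1.42 (log2 fold change 6.65 ± 0.55, SE, limma, adjusted p = 2.2e-05). Bank1 had higher values in CX3CR1+ cells (760 to 830 against 403 to 421), though its change stayed under the fold threshold. The summed B cell list ranged from 2131 to 3009.8 in CX3CR1- and from 1218 to 1305 in CX3CR1+ libraries.

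Of 14 plasma cell genes 13 were tested, and 6 were called higher and 2 lower, against the same 12.2 and 8.15% of all tested genes. For 3 of the 14, no CX3CR1+ library exceeded 3 reads, so these too could not be called lower. Pou2af1, a transcriptional coactivator of B lineage cells, had 592, 1168 and 576 against 0 (log2 fold change 9.53 ± 0.42, SE, limma, adjusted p = 1.5e-06). Mzb1, a chaperone of antibody assembly, had 30.3, 75.1 and 66.8 against 0, and Sdc1, the surface proteoglycan CD138, had 155, 112 and 103 against 6.71, 3.15 and 1.99. Prdm1 and Slamf7 were called lower, and 5 plasma cell genes were not called. The summed list of 5158 to 9125 overlapped that of CX3CR1+ cells (4802 to 7346). Which cells carried the transcripts of these genes was not tested.

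Rag2, needed for V segment rearrangement, had values of 23.0, 21.5 and 43.9 in CX3CR1- and 32.8, 33.6 and 38.2 in CX3CR1+ cells. These ranges overlapped, and Rag2 was not called (limma, adjusted p = 0.63).

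Markers of other cell types differed between the groups as well. All 5 dendritic cell markers, all 5 epithelial markers and all 4 fibroblast markers were called higher and all 9 macrophage markers lower in CX3CR1- cells. Over all tested genes these shares were 12.2% higher and 8.15% lower. Of the 5 epithelial markers, 3 did not exceed 3 reads in any CX3CR1+ library and could not be called lower. The summed epithelial markers ranged from 15510.3 to 26602 in CX3CR1- and from 16.03 to 35.7 in CX3CR1+ libraries. Of the 6 T cell markers, 3 were tested, with 1 called higher and 1 lower. The part of these cell types in the V segment results was not tested.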

How the data were processed

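Bulk RNA-seq libraries of MHCIIhi CX3CR1- and CX3CR1+ cells (3 each) were analysed. The authors pseudoaligned the reads to the GENCODE M16 transcripts with Kallisto, summed the estimates per gene and normalized them with DESeq2, and the deposited values are this normalized signal. Kallisto assigns reads by stretches shared with germline transcripts, so reads that carry somatic substitutions or cross a V-J junction can remain unassigned, which was not tested. Only 43.9 to 45.9% of all values above 0 were whole multiples of 1 read (tolerance 0.02 reads), so no count test was run. Among V segments in CX3CR1- libraries it was 84.4 to 89.0%, and read numbers are approximate. Genes with few reads are hardly listed, since 0.0957% of the listed genes had fewer than 10 approximate reads in all.

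limma 3.58.1 in R 4.3.3 (lmFit, eBayes with trend) was fitted to log2(value + 1) of all 6 libraries without covariates, for genes with a mean of at least 10. A fold change on this scale understates that of low genes. On simulated data (3 against 3 libraries, 17769 genes) limma recovered 86 of 100 genes changed 4-fold and 100 of 100 changed 16-fold, with 9 false calls. The simulation gave every gene the same dispersion in both groups. In the data, 82.4% of the tested V segments differed over 10-fold between CX3CR1- libraries, so these rates do not describe the V segments. Positions, transcripts and 31-base overlaps came from GENCODE M21 (GRCm38), and all 114 symbols matched. Sums, shares and plots were made in Python 3.11.15 with pandas 2.3.3, SciPy 1.17.1 and matplotlib 3.10.9.

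The members and gene lists were chosen with earlier results of these data known. Segments were named if they were among the 5 highest means of a class, led a library (3 per CX3CR1- library, 1 per CX3CR1+ library), had the largest ratio between CX3CR1- libraries or the smallest adjusted p, or lay next to the filter. Alternatives were other pseudocounts, filters and scalings, no trend, a replicate block, family sums, thinning and leaving out each library. T cell receptor segments, Ighe, Ighg2a, Ighg2c, Iglc4, Rag1, Vpreb1 and Igll1 were not analysed here. Results for 2 genes of the lists are not reported here.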

Additional observations from a re-analysis of the deposited data

How the results depend on the processing

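The count of 26 V segments called higher became 42 of 114 without the filter on low values, where 2484 of all 26110 genes were called higher. At a mean of at least 50 it was 13 of 23, where 1232 of all 10208 genes were, as more or fewer segments were tested. It was 20 under quantile normalization, where the median change over all tested genes was -0.15 on the log2 scale and the numbers of genes called higher and lower went from 2177 and 1451 to 1716 and 1674. Leaving out 1 library gave 21 to 38 V segments, where 1724 to 2263 of 17498 to 17958 tested genes were called higher. No alternative called a V segment lower, an outcome fixed by CX3CR1+ values of at most 5.74. Quantile normalization left 1 in place of 2 B cell and plasma cell genes called lower, and the cause was not tested. The ratio of the summed heavy value was 476 to 1859 and that of kappa 1019 to 3391 with 1 library left out, lowest without CX3CR1- replicate 2 and highest without CX3CR1+ replicate 2. The mean lambda value in CX3CR1- was 318 without CX3CR1- replicate 2 and 769 without replicate 3.

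At a value of at least 10, a mean of 28.3 heavy and 28.3 kappa segments were detected per CX3CR1- library, instead of 43.3 and 43. With families in place of segments, the mean effective number was 3.27 for heavy and 7.32 for kappa and the leading share 68.8 and 34.1%, by construction on fewer units. As 1 minus the Bray-Curtis distance, the mean likeness of CX3CR1- libraries was 0.449 for heavy and 0.307 for kappa, a different scale from Spearman's rho (0.16 and -0.02). The mean kappa to lambda ratio was 5.47 without CX3CR1- replicate 3 and 20.7 without replicate 1. Library numbers of the populations fall in adjacent pairs, whose deviations from the group means correlated at 0.104, 0.038 and 0.014. For the other pairs these correlations were -0.083 to 0.040. Whether adjacent libraries shared a pool of mice cannot be told from these values and was not tested. A replicate block of these pairs gave 31 V segment calls, where 2165 of all 17812 tested genes were called higher. The remaining alternatives stayed within the limits used for these counts and values. Depth limits statements on CX3CR1+ cells to more than 3 reads per segment.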

Other observations

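Ighv11-2 and Igkv14-126, a heavy and a kappa segment known to be paired in antibodies of B-1 cells, were singled out after their values were seen. Ighv11-2 had a value of 88.8 (89 reads) in CX3CR1- replicate 3 and 0 in the other 5 libraries. Igkv14-126 had values of 1.04, 1.79 and 72.8 in CX3CR1- replicates 1, 2 and 3 and 0 in CX3CR1+ cells. Both were thus high in the same library. Other segments were also high in replicate 3 only, among them Igkv1-99 (1.07, 0 and 816) and Ighv1-26 (7.31, 0 and 320), so the shared library is not particular to this pair. Neither was called (limma, adjusted p = 0.46 and 0.21), and bulk values do not show whether the 2 chains came from the same cells.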
